A study of Mus musculus with 16 samples.

Results

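The interleukin-6 (IL-6) family of cytokines and its signaling were described in mouse satellite cell-derived myoblasts through 10 genes of the 34836 gene names on the array, read by 13 of its 55681 probes. The genes are the ligands Il6, Il11, Lif and Clcf1, the receptor subunits Il6ra, Il6st, Lifr and Osmr, the transcription factor Stat3 and the feedback inhibitor Socs3. They were chosen by name, with earlier results of these data known. Each probe that the array's design assigns to one of these names was used. All cells came from male C57Bl/6J mice, aged 11 to 13 weeks according to the labels, with no genetic change and no added agent. Dispersed myoblasts were grown away from the fiber on gelatin-coated dishes, with 1 mouse per preparation. Myofiber-associated myoblasts were cultured on explanted single myofibers and stripped from them with trypsin before lysis, with 2 mice per preparation. The labels list 0.5% trypsin for all 16 arrays, the dispersed ones included. Each culture has 4 arrays at 48 hr and 4 at 72 hr after isolation, which makes 16 arrays, and 1 of the myofiber-associated 48-hr arrays (replicate 10) carried a pool of 2 preparations. The study compared the cultures to ask how myoblasts with and without their niche change as they leave the cell cycle.

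Cytokines of this family bind a receptor that pairs a ligand-specific subunit with the shared signal transducer gp130, the product of Il6st. The receptor activates JAK kinases, which phosphorylate STAT3, and STAT3 in turn induces Socs3, whose product binds gp130 and shuts the signal off. IL-6 and LIF are released in injured and working muscle, and both are known to act on satellite cells and their progeny. Values are log2 fluorescence signals after normalization, on which a difference of 1 is a doubling, and they compare arrays within a gene, never 1 gene with another. A difference passed the test when its adjusted p (limma, Benjamini-Hochberg over the 20317 genes tested) was under 0.01. All 10 genes were among those tested, and all 13 probes were well above background on all 16 arrays.

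Several facts of the whole series touch every value below. All 8 arrays of a culture lay on 1 slide, so that culture and slide cannot be told apart. Only the myofiber-associated cells were separated from fibers at harvest. Array pairs of a dispersed group correlated at 0.993 to 0.998 and those of a myofiber-associated group at 0.98 to 0.996, and the median SD of a gene was 0.095 and 0.1 in the dispersed groups against 0.22 and 0.18 in the myofiber-associated ones. Myoblast markers (12 genes, with Pax7, Myod1 and Myog among them) were well above background in all groups except Msc, which was not well above background on any 72-hr array. Myog, an early marker of differentiation, ranged from 5.72 to 6.67 and 9.60 to 10.40 in dispersed myoblasts and from 13.98 to 15.00 and 12.70 to 14.80 in myofiber-associated myoblasts at 48 and 72 hr. Genes of adult muscle fibers were high in the myofiber-associated arrays, although the labels report that no fiber RNA was found in these preparations. The signal summed over 12 such genes (log2) ranged from 14.39 to 15.75 and 13.48 to 13.83 in dispersed myoblasts at 48 and 72 hr, and from 20.72 to 21.14 and 18.4 to 20.65 in myofiber-associated myoblasts. Of these genes, 12 of 12 passed as higher in myofiber-associated myoblasts at 48 hr and 10 of 12 at 72 hr, with medians of 5.90 and 5.52. The 12 endothelial markers went the other way, with 11 of 12 lower in myofiber-associated myoblasts at each time and medians of -2.60 and -3.06. Their summed signal ranged from 16.94 to 17.4 and 15.45 to 15.98 in dispersed myoblasts and from 14.42 to 15.53 and 13.65 to 13.98 in myofiber-associated myoblasts at 48 and 72 hr. In whole preparations, fewer cells of a type and less RNA per cell cannot be told apart, and the part of other cells in the results that follow was not tested.

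**Figure D1:**
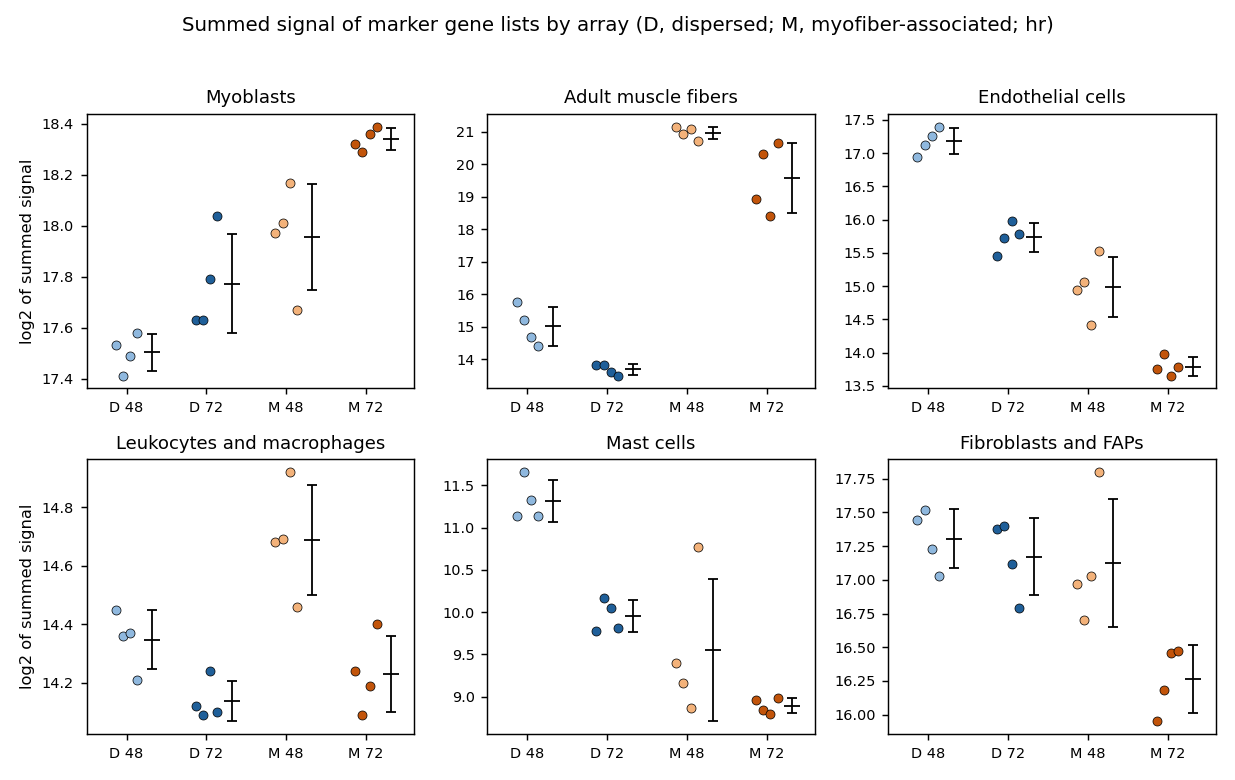
Log2 of the signal summed over each list of marker genes (y axis) in the 4 arrays of each group (x axis: D, dispersed; M, myofiber-associated; 48 or 72 hr), with the mean and SD beside the points; FAPs are fibro-adipogenic progenitors. Adult fiber genes sit at 18.4 to 21.14 in the myofiber-associated arrays and at 13.48 to 15.75 in the dispersed ones, while endothelial genes are lowest in the myofiber-associated 72-hr arrays (13.65 to 13.98).

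STAT, NF-kB, AP-1 and C/EBP factors are known to act on genes of this family. RefSeq promoter sequences (mouse build GRCm38.p6, 250 bases before to 50 after the start of transcription) were found for 9 of the 10 genes, the exception being Clcf1, and were searched on both strands for 1 motif of each. The STAT motif TTCNNNGAA, which 8.3% of all 32851 promoters hold, was found in 1 of the 9 genes, Socs3. The NF-kB motif GGANTTTCC (1.25% of all promoters) and the C/EBP motif TTGCNNAA (10.8%) were each found in 1, Il6. The AP-1 motif TGANTCA (7.81%) was found in 4, Il6, Il11, Lif and Osmr. A match describes the letters only and is not evidence of a bound site. The 250 bases before the start are printed for the genes in which a motif lies there, and motif letters are in capitals. They are chr5:30012864-30013113 (plus strand) for Il6, chr11:4257318-4257567 (plus strand) for Lif, chr7:4778142-4778391 (minus strand) for the downstream of the 2 Il11 promoters and chr11:117969367-117969616 (minus strand) for Socs3.
Il6: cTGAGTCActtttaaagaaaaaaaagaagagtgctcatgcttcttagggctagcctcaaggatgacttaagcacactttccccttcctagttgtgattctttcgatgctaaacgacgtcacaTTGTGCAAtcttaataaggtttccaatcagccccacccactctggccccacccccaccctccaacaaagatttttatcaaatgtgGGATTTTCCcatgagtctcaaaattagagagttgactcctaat
Lif: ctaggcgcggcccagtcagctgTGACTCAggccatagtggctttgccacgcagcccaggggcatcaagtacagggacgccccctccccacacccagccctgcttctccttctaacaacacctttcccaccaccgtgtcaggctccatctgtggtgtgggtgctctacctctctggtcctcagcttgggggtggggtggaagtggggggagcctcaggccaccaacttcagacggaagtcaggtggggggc
Il11: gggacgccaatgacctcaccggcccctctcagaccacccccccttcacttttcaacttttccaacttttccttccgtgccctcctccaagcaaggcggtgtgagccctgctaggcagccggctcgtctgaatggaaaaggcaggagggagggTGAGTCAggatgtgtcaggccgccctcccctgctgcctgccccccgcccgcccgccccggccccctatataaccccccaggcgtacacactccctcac
Socs3: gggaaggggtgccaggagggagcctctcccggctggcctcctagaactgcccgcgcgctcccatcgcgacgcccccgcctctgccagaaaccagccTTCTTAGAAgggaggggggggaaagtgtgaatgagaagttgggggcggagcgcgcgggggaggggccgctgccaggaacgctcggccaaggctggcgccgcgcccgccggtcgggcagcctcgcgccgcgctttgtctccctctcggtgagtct
In Il6 the AP-1, C/EBP and NF-kB letters begin 249, 128 and 43 bases before the start. The AP-1 letters begin 228 bases before the start of Lif and 98 bases before that of Il11, and the STAT letters of Socs3 begin 154 bases before its start.

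Among the ligands, Il6 showed the greatest difference between cultures. It was about 10.7-fold higher in myofiber-associated than in dispersed myoblasts at 48 hr. This cytokine is made by many stressed cells and by contracting muscle. At 48 hr its log2 signal was 8.61, 9.34, 9.13 and 9.18 on the dispersed arrays (replicates 1 to 4) and 12.26, 12.09, 12.17 and 13.40 on the myofiber-associated ones (replicates 7 to 10). At 72 hr it was 9.18, 9.87, 9.58 and 9.33 on the dispersed arrays (replicates 5 to 8) and 10.04, 9.38, 10.34 and 11.62 on the myofiber-associated ones (replicates 1 to 4). All myofiber-associated arrays thus lay above all dispersed arrays at 48 hr, while at 72 hr the cultures overlapped. The difference at 48 hr was 3.42 (SE 0.39, adjusted p = 6.13e-06), and it passed under every alternative setting tried, at 2.97 to 3.54. At 72 hr it was 0.85 (SE 0.39, adjusted p = 0.0887), which did not pass.

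The difference between the cultures narrowed over time, although neither culture's own change in Il6 passed the test. In myofiber-associated myoblasts it was 4.39-fold lower at 72 hr (-2.13, SE 0.48, adjusted p = 0.0196), with all 72-hr arrays below all 48-hr arrays. In dispersed myoblasts the change was 0.43 (SE 0.19, adjusted p = 0.143) and the arrays overlapped. The comparative ratio (CR), here the dispersed change minus the myofiber-associated change, was 2.56 (SE 0.56, 95% interval 1.37 to 3.75, adjusted p = 0.0104), just short of the threshold. Myofiber-associated 72-hr replicate 4 was the highest of its group, and without it the myofiber-associated change was -2.56 (adjusted p = 0.00538) and the CR 2.99 (adjusted p = 0.000969). Without the pooled 48-hr array (replicate 10) the CR was 2.26 (adjusted p = 0.00768). The CR also passed with slide row as a block (adjusted p = 0.00672) and with scaling to the 75th percentile (0.00925). It passed as well with the deposited log2 ratios (0.00317). Of 26 alternative settings it passed in 6, and its adjusted p reached 0.0263. Of all genes, 3.45% passed for the CR in the main fit. That share was 8.65% without myofiber-associated 72-hr replicate 4, 11.6% without the pooled array and 18.8% with the deposited ratios. It was 2.79% with the block and 2.98% with the scaling.

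Il11, a cytokine that shares gp130 and is known for its action on stromal cells, fell with time on the fiber. Its signal on the myofiber-associated arrays was 14.46, 14.24, 14.39 and 14.28 at 48 hr and 12.60, 12.99, 12.86 and 13.48 at 72 hr, with no overlap. On the dispersed arrays it was 14.88, 14.64, 14.52 and 13.59 at 48 hr and 13.85, 13.79, 13.36 and 12.98 at 72 hr. Here the lowest 48-hr array lay within the range of the 72-hr arrays. The fall in myofiber-associated myoblasts was 2.57-fold (-1.36, SE 0.18, adjusted p = 0.00284). Without 72-hr replicate 3 it was -1.32 with an adjusted p of 0.0102, and without 48-hr replicate 7 it was -1.33 with an adjusted p of 0.0130. The dispersed change was -0.91 (SE 0.30, adjusted p = 0.0594), and the CR of 0.45 (95% interval -0.34 to 1.24) did not separate the cultures. Nor did Il11 differ between the cultures at 48 hr (-0.06, 95% interval -0.62 to 0.50) or at 72 hr (-0.51, -1.07 to 0.05) beyond the threshold.

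Lif, which signals through gp130 and Lifr and is known to promote myoblast proliferation, was similar in the cultures at 48 hr and lower on the fiber at 72 hr. The dispersed arrays read 8.51, 8.35, 8.20 and 7.57 at 48 hr and 8.35, 8.47, 7.92 and 7.52 at 72 hr. The myofiber-associated arrays read 8.21, 8.17, 8.14 and 9.37 at 48 hr and 6.52, 6.50, 6.75 and 7.40 at 72 hr. The last group lay below the other 3 groups on every array. At 72 hr Lif was 2.42-fold lower in myofiber-associated myoblasts (-1.27, SE 0.31, adjusted p = 0.00408), where the difference at 48 hr was 0.32 (SE 0.31, adjusted p = 0.386). Leaving out myofiber-associated 72-hr replicate 1 or 2, or dispersed 72-hr replicate 5 or 6, gave -1.18, -1.18, -1.18 and -1.14 with adjusted p of 0.0130, 0.0140, 0.0147 and 0.0159.

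With time Lif was 3.20-fold lower at 72 hr in myofiber-associated myoblasts (-1.68, SE 0.32, adjusted p = 0.0109), short of the threshold although the arrays did not overlap. In dispersed myoblasts the change was -0.09 (95% interval -0.69 to 0.51). The CR was 1.59 (SE 0.44, adjusted p = 0.0288). Without myofiber-associated 72-hr replicate 4 the fall on the fiber was -1.89 (adjusted p = 0.00791) and without the pooled 48-hr array -1.39 (adjusted p = 0.00521). Clcf1, a ligand that acts through the CNTF receptor, moved least of the 4. Its signal was 10.25 to 10.50 and 10.22 to 10.47 on the dispersed arrays and 10.02 to 10.44 and 9.57 to 10.18 on the myofiber-associated arrays at 48 and 72 hr. It was 1.42-fold lower on the fiber at 72 hr (-0.51, SE 0.13, adjusted p = 0.00452). That call was lost without myofiber-associated 72-hr replicate 1, 2 or 3 (-0.42, -0.48 and -0.50, adjusted p = 0.0154, 0.0141 and 0.01002) and without dispersed 72-hr replicate 5 or 6 (-0.49 and -0.46, adjusted p = 0.0136 and 0.0172).

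**Figure D2:**
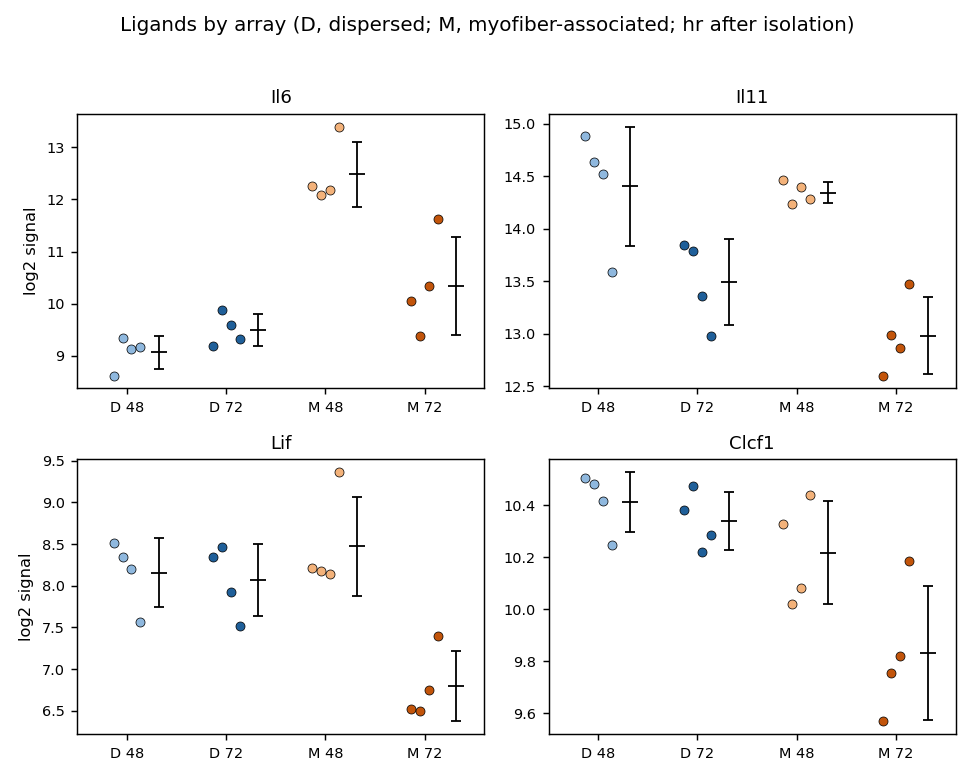
Log2 signal (y axis) of the 4 ligands on the 4 arrays of each group (x axis: D, dispersed; M, myofiber-associated; 48 or 72 hr), with the mean and SD beside the points. Il6 is highest on the myofiber-associated 48-hr arrays (12.09 to 13.40) and Lif lowest on the myofiber-associated 72-hr arrays (6.50 to 7.40).

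The receptor subunits did not share 1 pattern. Il6ra, the subunit that binds IL-6 itself, was lower on the fiber at both times. Its dispersed arrays read 9.54, 9.64, 9.54 and 9.29 at 48 hr and 9.21, 9.18, 9.05 and 8.88 at 72 hr. Its myofiber-associated arrays read 8.25, 8.67, 8.11 and 9.34 at 48 hr and 7.96, 7.53, 7.98 and 7.85 at 72 hr. The high value of the 48-hr group belongs to the pooled replicate 10, which alone overlapped the dispersed arrays, and all myofiber-associated 72-hr arrays lay below all dispersed ones. The difference was -0.91 at 48 hr (1.88-fold lower, SE 0.21, adjusted p = 0.00159) and -1.25 at 72 hr (2.38-fold lower, SE 0.21, adjusted p = 0.000258). The changes with time, -0.42 in dispersed (adjusted p = 0.0150) and -0.76 in myofiber-associated myoblasts (adjusted p = 0.0651), did not pass although neither pair of time points overlapped. Without dispersed 48-hr replicate 4 the dispersed change was -0.49 (adjusted p = 0.00875).

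Il6st, which encodes the shared transducer gp130, was higher on the fiber at 48 hr and lower at 72 than at 48 hr in dispersed myoblasts. It read 12.62, 12.63, 12.59 and 12.60 on the dispersed 48-hr arrays and 12.17, 12.27, 12.30 and 12.17 on the dispersed 72-hr arrays. On the fiber it read 13.49, 13.08, 13.47 and 13.03 at 48 hr and 11.90, 12.60, 12.10 and 12.75 at 72 hr. The dispersed replicates were tight, so a change of -0.39 (SE 0.04, adjusted p = 0.000696) passed, while the greater change of -0.93 on the fiber (SE 0.21, adjusted p = 0.0205) did not. The CR was 0.55 (95% interval 0.06 to 1.04, adjusted p = 0.108). At 48 hr Il6st was 1.58-fold higher on the fiber (0.66, SE 0.16, adjusted p = 0.00258), and without myofiber-associated 48-hr replicate 7 or 9 this was 0.58 and 0.59 with adjusted p of 0.0104 and 0.0102. With slide row as a block it was 0.62 with an adjusted p of 0.0260. At 72 hr the difference was 0.11 (95% interval -0.23 to 0.46).

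Osmr, the subunit that pairs with gp130 to bind oncostatin M, was 2.30-fold lower on the fiber at 72 hr. The dispersed arrays read 11.35, 11.63, 11.58 and 11.60 at 48 hr and 11.13, 11.36, 11.31 and 11.01 at 72 hr. The myofiber-associated arrays read 11.33, 11.05, 11.57 and 11.77 at 48 hr and 9.66, 10.15, 9.51 and 10.69 at 72 hr, and this last group did not overlap any other. The difference between cultures was -1.20 at 72 hr (SE 0.21, adjusted p = 0.000448) and -0.11 at 48 hr (SE 0.21, adjusted p = 0.671). The change with time was -1.43 on the fiber (SE 0.27, adjusted p = 0.0109) and -0.33 in dispersed myoblasts (SE 0.10, adjusted p = 0.0362), and the CR was 1.09 (SE 0.30, adjusted p = 0.0296). Without myofiber-associated 72-hr replicate 4 the change on the fiber was -1.65 (adjusted p = 0.00404) and the CR 1.32 (adjusted p = 0.00286). Oncostatin M itself (Osm) was well above background on 1 of 4 arrays in each dispersed group and on 4 and 3 of 4 myofiber-associated arrays at 48 and 72 hr, and was too dim to be tested.

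Lifr, the subunit that binds LIF, was read by 3 probes that disagreed. By the brightest of them, which stands for the gene, Lifr passed in no comparison. Its values ranged from 9.99 to 10.45 over the 16 arrays, and the difference between the cultures was -0.08 (95% interval -0.33 to 0.18) at 48 hr and -0.0041 (-0.26 to 0.25) at 72 hr. The second probe was higher on the fiber at 48 hr (0.46, SE 0.12, adjusted p = 0.00428 over the 28197 probes tested) and the third was lower (-1.39, SE 0.13, adjusted p = 1.19e-06). The third probe read 7.64, 8.03, 8.45 and 8.30 on the dispersed 48-hr arrays and 7.39, 7.49, 7.52 and 7.46 on the dispersed 72-hr arrays. On the myofiber-associated arrays it read 6.65 to 6.87 at 48 hr and 6.61 to 6.76 at 72 hr, below all dispersed arrays. At 72 hr the third probe was still lower on the fiber (-0.78, adjusted p = 0.000312), whereas the second was 0.34 higher (adjusted p = 0.0327). The second probe alone passed with time, falling by 0.32 in dispersed myoblasts (adjusted p = 0.00837).

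The array's design places these probes on build mm9 at chr15:7147319-7147378 (the brightest, A_55_P2159259), chr15:7141150-7141209 (the second, A_51_P113182) and chr15:7135072-7135131 (the third, A_55_P2159264), all on the plus strand, and assigns the third to another Lifr transcript than the first pair. The first 30 bases of each are printed because the probes read different stretches of the locus.
Lifr A_55_P2159259: catagatgatgtaaatagcctaagacactg
Lifr A_51_P113182: agaacaaaccaaatgactaaccaggtcacc
Lifr A_55_P2159264: taaaaacttggaaatgtatccaggcctaac
A gene-level statement on Lifr therefore depends on the probe. With all 3 probes averaged, Lifr was lower on the fiber at 48 hr (-0.34, adjusted p = 0.00625).

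**Figure D3:**
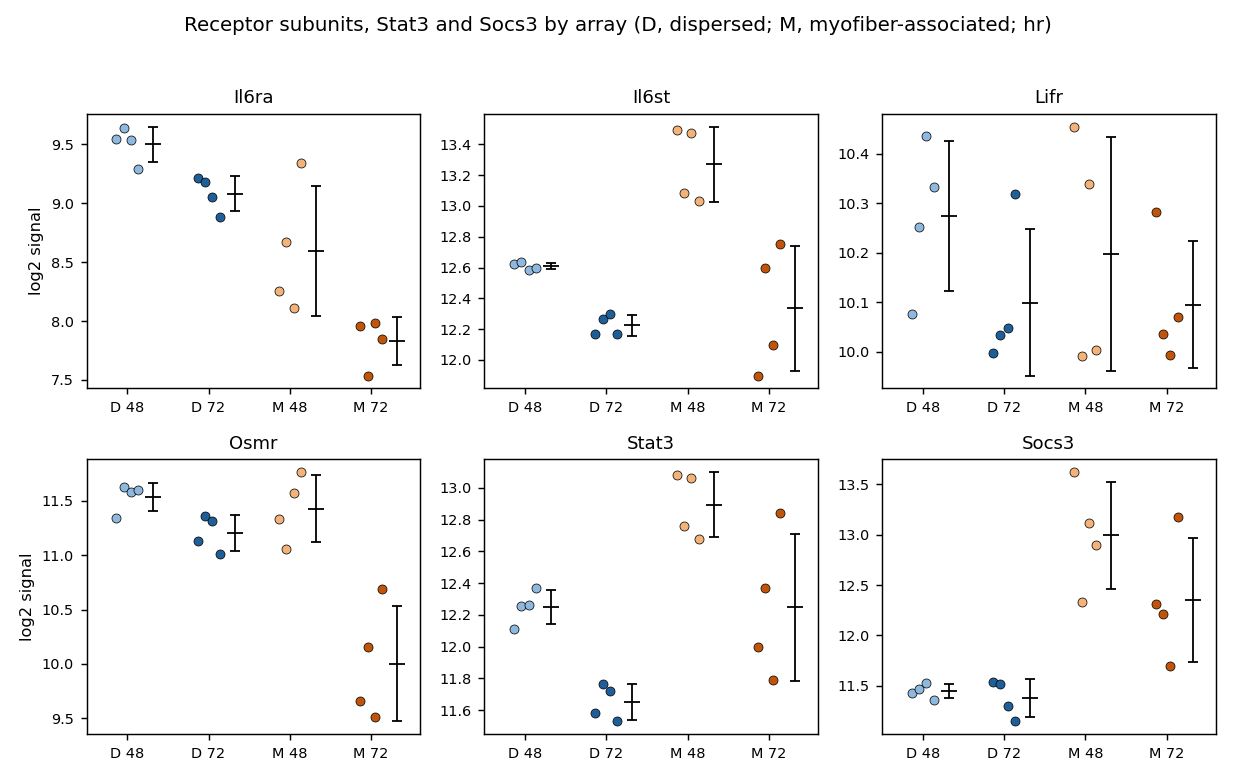
Log2 signal (y axis) of the 4 receptor subunits, Stat3 and Socs3 on the 4 arrays of each group (x axis: D, dispersed; M, myofiber-associated; 48 or 72 hr), with the mean and SD beside the points. Il6ra is lower on the fiber at both times, Osmr is lowest on the myofiber-associated 72-hr arrays (9.51 to 10.69), and Socs3 is above all dispersed arrays on all 8 myofiber-associated arrays.

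Stat3, the factor that carries the signal to the nucleus, fell with time in dispersed myoblasts, by 0.60 on the log2 scale (1.52-fold, SE 0.07, adjusted p = 0.000948). The dispersed arrays read 12.11, 12.25, 12.26 and 12.37 at 48 hr and 11.58, 11.77, 11.72 and 11.53 at 72 hr. The myofiber-associated arrays read 13.08, 12.76, 13.06 and 12.68 at 48 hr and 11.99, 12.37, 11.79 and 12.84 at 72 hr. On the fiber the mean change was of like size (-0.65) but the arrays overlapped (SE 0.23, adjusted p = 0.0689), and the CR was 0.05 (95% interval -0.49 to 0.58). At 48 hr Stat3 was 1.56-fold higher on the fiber (0.65, SE 0.18, adjusted p = 0.00539). Of 18 alternative settings it passed in 11. It was lost without myofiber-associated replicate 7 or 9 (0.58 and 0.59, adjusted p = 0.0191 and 0.0184) and without dispersed replicate 1, 2 or 3 (0.60, 0.65 and 0.65, adjusted p = 0.0174, 0.0127 and 0.0124). It was also lost with slide row as a block (0.65, adjusted p = 0.0325) and with no filter on low signal (0.65, adjusted p = 0.0102). At 72 hr the difference was 0.60 (adjusted p = 0.0130), and without myofiber-associated replicate 3 it was 0.75 (adjusted p = 0.00219).

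The second Stat3 probe, dimmer and at chr11:100759946-100760005 on the minus strand of mm9 (the first is at chr11:100749598-100749657), moved the same way as the first. It fell by 0.66 in dispersed myoblasts (adjusted p = 0.000732), was 0.98 lower at 72 hr on the fiber (-0.98, adjusted p = 0.0193) with no overlap, and was 0.85 higher on the fiber at 48 hr (adjusted p = 0.000668). The first 30 bases of each are given since they stand for different Stat3 transcripts in the design.
Stat3 A_51_P201480: cactctgtgagctgataccccaggctggga
Stat3 A_55_P1991219: tttaacattctgggcacgaacacaaaagtg

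**Figure D4:**
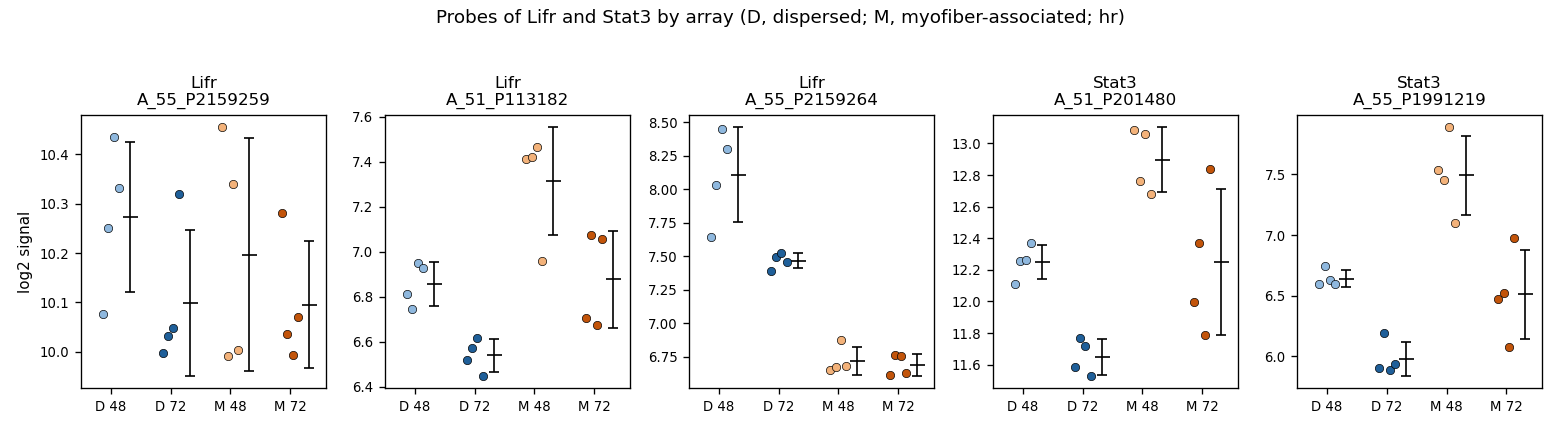
Log2 signal (y axis, a scale of its own in each panel) of the 3 Lifr probes and the 2 Stat3 probes on the 4 arrays of each group (x axis: D, dispersed; M, myofiber-associated; 48 or 72 hr), with the mean and SD beside the points. The third Lifr probe is lower on all myofiber-associated arrays (6.61 to 6.87) than on all dispersed arrays (7.39 to 8.45), the first is not, and the Stat3 probes share their pattern.

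Socs3, the inhibitor that STAT3 itself induces, was 2.92-fold higher on the fiber at 48 hr. The dispersed arrays read 11.43, 11.47, 11.53 and 11.36 at 48 hr and 11.54, 11.52, 11.30 and 11.14 at 72 hr. The myofiber-associated arrays read 13.62, 12.33, 13.12 and 12.90 at 48 hr and 12.32, 12.21, 11.70 and 13.17 at 72 hr. All 8 myofiber-associated arrays lay above all 8 dispersed arrays. The difference was 1.55 at 48 hr (SE 0.28, adjusted p = 0.000232), which passed under every alternative setting tried, and 0.98 at 72 hr (SE 0.28, adjusted p = 0.0101), just short of the threshold. Without myofiber-associated 72-hr replicate 3 the latter was 1.19 (adjusted p = 0.00251). With time Socs3 changed by -0.07 in dispersed myoblasts (95% interval -0.29 to 0.14) and by -0.64 on the fiber (-1.45 to 0.16), and neither passed.

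At 48 hr 4 of 10 genes (Il6, Il6st, Socs3 and Stat3) were higher on the fiber, beside 19.1% of all genes tested, and 1 of 10 (Il6ra) was lower, beside 32.5%. At 72 hr none was higher in limma's test (12.9% of all genes were), with 3 (Il6, Socs3 and Stat3) higher at an unadjusted p under 0.05 (24.2% of all genes), and 4 of 10 (Clcf1, Il6ra, Lif and Osmr) were lower (18.4%). Il6ra was called at both times. In either direction 5 of 10 passed at 48 hr and 4 of 10 at 72 hr, near the 51.6% and 31.3% of all genes that did. With time 2 of 10 fell in dispersed myoblasts (Il6st and Stat3), beside 6.35% of all genes, and 1 of 10 on the fiber (Il11), beside 1.75%; none rose in either by limma's test, where 7.37% and 3.74% of all genes did, nor at an unadjusted p under 0.05, where 21.7% and 23.8% of all genes did. The 72-hr arrays all lay below the 48-hr arrays for 3 of 10 genes in dispersed myoblasts (Il6ra, Il6st and Stat3), beside 13.7% of all genes, and for 6 of 10 on the fiber (Il6, Il11, Lif, Il6ra, Il6st and Osmr), beside 10.4%. No member passed for the CR in limma's test (3.45% of all genes did), where 4 (Il6, Lif, Il6st and Osmr) had an unadjusted p under 0.05, as had 34.3% of all genes, and 2 (Il6 and Lif) passed with the deposited log2 ratios, near the 18.8% of all genes that did. Their median change with time was -0.25 in dispersed (0.02 over all genes) and -0.85 in myofiber-associated myoblasts (0.06), where 10 of 10 were below 0 against 43% of all genes. These counts are small, the members are not independent of each other, and the counts of calls hang on how the spread is estimated: when 1 fit of all 16 arrays shared its spread between the cultures, 7 members passed on the fiber, beside 28.5% of all genes, and none in dispersed myoblasts, beside 4.92%. Without myofiber-associated 72-hr replicate 4, 4 members passed on the fiber (Il6, Il11, Lif and Osmr), beside 6.83% of all genes.

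**Figure D5:**
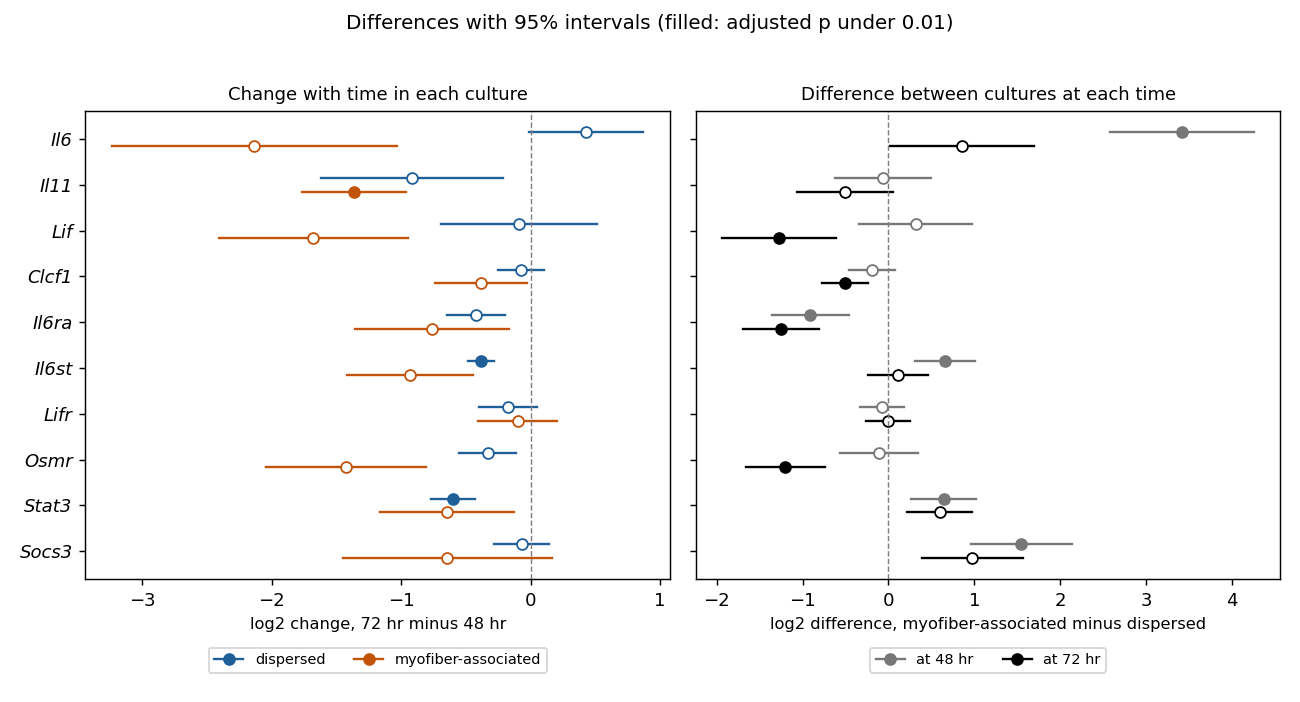
Differences in log2 signal (x axes) with 95% intervals for the 10 genes: on the left 72 hr minus 48 hr in each culture, on the right myofiber-associated minus dispersed at each time; filled points have an adjusted p under 0.01. With time Il6, Lif and Osmr are lower on the fiber by 2.13, 1.68 and 1.43 with open points, and between cultures Il6 at 48 hr stands out at 3.42.

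The 4 myofiber-associated 72-hr arrays fell into pairs by their place on the slide. Replicates 2 and 4 lay in the second column of the slide and correlated with the 48-hr arrays at 0.978 to 0.985, and replicates 1 and 3 lay in the first column and correlated at 0.95 to 0.969. The summed signal of the adult fiber genes was 18.92, 20.33, 18.4 and 20.65 in replicates 1 to 4. Stat3 and Osmr took the same order as the fiber genes over these 4 arrays, and Il6st and Il11 were likewise higher in replicates 2 and 4. Relative to the 48-hr mean, Stat3 stood at -1.004 in replicates 1 and 3 and at -0.29 in 2 and 4, Il6st at -1.27 and -0.59 and Osmr at -1.84 and -1.01. Il6 (-2.29 and -1.98), Lif (-1.84 and -1.52) and Socs3 (-0.99 and -0.30) differed less between the pairs than within replicates 2 and 4. The part of slide column, fiber RNA and preparation in these differences was not tested.

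The pooled 48-hr array was the highest of its group for Il6, Lif, Clcf1, Il6ra and Osmr, and the lowest for Il6st and Stat3. It was also the highest of its group for mast cell, endothelial, fibroblast, pericyte and Schwann cell markers. For leukocyte, myoblast and adult fiber markers it was the lowest. Its mast cell markers summed to 10.77 against 8.87 to 9.4 on the other 3 arrays of its group, and its endothelial markers to 15.53 against 14.42 to 15.06. Its fibroblast and fibro-adipogenic progenitor markers summed to 17.8 against 16.7 to 17.03, its pericyte markers to 13.68 against 13.37 to 13.39 and its Schwann cell markers to 13.04 against 12.59 to 12.77. Its myoblast markers summed to 17.67 against 17.97 to 18.17 and its leukocyte markers to 14.46 against 14.68 to 14.92. Its adult fiber genes summed to 20.72 against 20.92 to 21.14. Over all groups, mast cell markers (8 genes) ranged from 9.78 to 11.66 in dispersed myoblasts and from 8.8 to 8.98 on the myofiber-associated arrays at 72 hr, where Cpa3, Cma1, Fcer1a and Ms4a2 were not well above background on any array. Leukocyte and macrophage markers (14 genes) ranged from 14.21 to 14.45 and 14.09 to 14.24 in dispersed myoblasts at 48 and 72 hr. On the fiber they ranged from 14.46 to 14.92 and 14.09 to 14.4. Of 11 tested, 6 were lower and 1, Cd68, was higher on the fiber at 48 hr. Bright genes weigh most in this sum, such as Itgam (13.27 dispersed and 13.30 on the fiber at 48 hr) and Cd68 (11.24 and 13.38). Fibroblast and fibro-adipogenic progenitor markers (12 genes) ranged from 16.7 to 17.8 in 3 of the groups and from 15.95 to 16.47 in the myofiber-associated 72-hr group. Of 11 tested, 3 were lower at 72 than at 48 hr on the fiber. Endothelial (13.65 to 13.98) and Schwann cell markers (11.85 to 12.34) were also lowest in the myofiber-associated 72-hr group. Among the members, Il11, Lif, Clcf1, Il6ra, Osmr and the brightest Lifr probe had their lowest group mean there. Pericyte and smooth muscle markers (9 genes) ranged from 15.4 to 16.55 in dispersed and from 13.37 to 13.99 in myofiber-associated myoblasts. In dispersed myoblasts this sum is mostly Acta2, with means of 15.57 and 15.97 at 48 and 72 hr (11.12 and 12.15 on the fiber). Of the 9 genes, 5 were lower on the fiber at 48 hr and 4 at 72 hr, and none passed as higher. At 72 hr Abcc9 (1.79) and Kcnj8 (1.03) lay above 0 without passing. Schwann cell markers (8 genes) ranged from 12.78 to 13.57 in dispersed and from 11.85 to 13.04 in myofiber-associated myoblasts. The part of these cells in the members' values was not tested.

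The wider pathway was followed in lists of genes that hold no member. Their counts stand beside the shares of all genes given above: 19.1% higher and 32.5% lower on the fiber at 48 hr, 12.9% and 18.4% at 72 hr, and with time 7.37% higher and 6.35% lower in dispersed and 3.74% and 1.75% in myofiber-associated myoblasts. Of 8 other ligands and soluble partners, 5 were tested. Cardiotrophin 1 (Ctf1), a gp130 ligand, was higher on the fiber at 48 hr (1.12, SE 0.20, adjusted p = 0.000255) and at 72 hr (0.73, SE 0.20, adjusted p = 0.00890), and rose with time in dispersed myoblasts (0.88, SE 0.09, adjusted p = 0.000314). Cntf fell in dispersed myoblasts (-0.32, adjusted p = 0.00623). Of 4 other receptor subunits, 3 were tested. Il11ra1, the subunit specific for IL-11, fell in dispersed myoblasts (-0.54, SE 0.07, adjusted p = 0.00133), and its change on the fiber was -0.85 (SE 0.16, adjusted p = 0.0105). Cntfr was higher on the fiber at 48 hr (1.37, adjusted p = 0.00371), and Il27ra was lower there at 48 and 72 hr (-1.13 and -1.85, adjusted p = 0.00247 and 0.000105). Il27ra was dim on the fiber, with means of 4.64 and 3.90. It was well above background on 3 and 2 of 4 arrays there, so the size of its differences is uncertain.

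Of 10 JAK kinases and other STAT factors, 8 were tested. At 48 hr 2 were higher on the fiber and 3 lower, and at 72 hr 1 was higher and 4 were lower. Jak3, a kinase best known from blood cells, was lower at both times (-2.30 and -1.33, adjusted p = 8.31e-07 and 0.000167), as was Stat2, which serves interferon signaling (-1.53 and -0.97, adjusted p = 7.05e-06 and 0.000568). Stat6, which serves interleukin-4 signaling, was lower at 72 hr (-0.65, adjusted p = 0.000180). Stat5a was higher at both times (0.81 and 0.84, adjusted p = 9.39e-07 and 9.77e-07), and Stat5b at 48 hr (1.56, adjusted p = 2.96e-05). With time Jak3 and Stat5b fell in dispersed myoblasts (-1.49 and -0.31, adjusted p = 4.69e-05 and 0.00739) and Jak1, the main kinase bound to gp130, on the fiber (-0.55, SE 0.10, adjusted p = 0.00807). Of 20 other inhibitors and adaptors 19 were tested, of which 2 were higher and 8 lower on the fiber at 48 hr and 1 higher and 7 lower at 72 hr. Like Socs3, the related suppressor Socs7 was higher on the fiber at 48 hr (0.78, adjusted p = 8.27e-05). Socs5 was lower on the fiber at both times (-0.72 and -1.27, adjusted p = 6.30e-05 and 6.75e-07). So was Socs1 (-0.44 and -0.51, adjusted p = 0.00520 and 0.00320), and Cish was lower at 72 hr (-0.88, adjusted p = 0.00308). Socs2 rose with time on the fiber (0.80, adjusted p = 0.00240). The adaptor genes Gab1 and Sos1 were lower on the fiber at 48 and 72 hr. The differences were -0.76 and -0.39 for Gab1 (adjusted p = 1.69e-05 and 0.00547). For Sos1 they were -0.70 and -0.67 (adjusted p = 0.000436 and 0.00107). In dispersed myoblasts Gab1 fell with time (-0.57, adjusted p = 0.00323), and Socs5 and Sos1 rose (0.50 and 0.46, adjusted p = 0.00841 and 0.00494). Ptpn6, which encodes a phosphatase of blood cells, was lower on the fiber at 48 hr (-1.81, adjusted p = 5.02e-05) and rose there with time (1.99, adjusted p = 0.00807). Its mean on the fiber at 48 hr was 4.65, and it was well above background on 3 of 4 arrays there. Ptpn6 and Socs7 were the genes of this list that passed for the CR (-1.93 and 0.81, adjusted p = 0.00639 and 0.00995).

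Genes known to respond to STAT3 went both ways. Of 30 listed, 26 were tested, of which 8 were higher and 7 lower on the fiber at 48 hr, and 5 higher and 9 lower at 72 hr. The median difference was 0.23 at 48 hr (-0.12 over all genes) and -0.18 at 72 hr (-0.02). At 48 hr those with the greatest differences were Fos (4.47, SE 0.19, adjusted p = 2.99e-09), the RNA-decay factor Zfp36 (2.15, adjusted p = 1.13e-06), Klf4 (1.85, adjusted p = 0.000337) and, in the other direction, Icam1, an adhesion molecule of endothelial and inflamed cells (-2.65, adjusted p = 1.42e-05). At 72 hr they were Fos (4.21), Icam1 (-4.06), the kinase Pim1 (2.24) and Fgl2 (-1.90), with adjusted p of 2.45e-09, 4.94e-07, 0.000195 and 0.00226. Icam1 and Fgl2 were dim on the fiber at 72 hr (means 4.11 and 4.84). Each was well above background on 3 of 4 arrays there, so the size of their differences is uncertain. Fos, Zfp36 and Klf4 are early-response genes that many stimuli induce. Over time 3 fell on the fiber, Icam1 (-2.60), Lrg1 (-1.86) and Twist1 (-1.37), with adjusted p of 0.00728, 0.00214 and 0.00564, and none rose. In dispersed myoblasts 4 rose and 2 fell, among them Serpina3g (1.92, adjusted p = 0.000601) and Bcl2l1 (0.40, adjusted p = 0.00299), with Lrg1 (-1.93, adjusted p = 0.000200) and Icam1 (-1.19, adjusted p = 3.53e-05) the falls.

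Of 23 genes tied to the induction of Il6, activators and inhibitors of its signal alike, 21 were tested. On the fiber at 48 hr 6 were higher and 3 lower, and at 72 hr 5 and 5. Egr1 was higher at both times (2.93 and 2.64, adjusted p = 1.57e-08 and 3.74e-08), as were Atf3 (2.46 and 2.27, adjusted p = 3.62e-06 and 1.26e-05) and Nr4a1 (2.75 and 1.44, adjusted p = 6.52e-07 and 0.000303), and Tlr4 was higher at 48 hr (1.19, adjusted p = 0.00315). Ptgs2, which encodes cyclooxygenase 2, was lower on the fiber at 72 hr (-1.91, adjusted p = 0.000159). Of the classic inducers Il1b rose with time in both cultures. In dispersed myoblasts it rose by 1.15 (adjusted p = 0.000569), while on the fiber it rose by 1.998 (adjusted p = 0.00528), and Tnf fell by 1.11 in dispersed myoblasts (adjusted p = 4.45e-05). Atf3 and the receptor gene Tlr2 also fell in dispersed myoblasts (-1.02 and -0.96, adjusted p = 0.000238 and 0.000799). Nr4a1 fell on the fiber (-1.39, adjusted p = 0.00916). In dispersed myoblasts 2 of the 21 rose and 7 fell, and on the fiber 1 rose and 1 fell.

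The values of 2 early-response genes show how far they followed Il6, which was lower on all myofiber-associated 72-hr arrays than at 48 hr. For Fos the time points overlapped, and for Nr4a1 they did not. On the myofiber-associated arrays Fos read 13.34, 13.26, 13.33 and 13.55 at 48 hr and 13.79, 12.54, 13.30 and 13.08 at 72 hr, and 8.66 to 9.09 on all 8 dispersed arrays. Nr4a1 read 15.42, 15.32, 15.46 and 15.97 at 48 hr and 14.16, 13.92, 13.71 and 14.84 at 72 hr on the fiber, and 12.34 to 13.17 on the dispersed arrays. Nr4a1, an early-response nuclear receptor, was among the 5 genes most like Il6 over the 16 arrays (Pearson's r = 0.929), with the transcription factor Klf6 (0.936), Cnppd1 (0.937), Uba1y (0.943) and a long non-coding transcript named only by its position (0.952). Lif was most like the hyaluronan synthase Has1 (0.970), Slfn2 (0.946), Twist2 (0.942), Birc3 (0.940) and Col16a1 (0.940), and Il11 most like Uap1 (0.951), Klhl29 (0.945), C1galt1 (0.923) and Penk (0.911), followed by a transcript without a gene symbol (0.904). Clcf1 was most like Lamb2 (0.941), Slit3 (0.940), Insl6 (0.929), Itgb3 (0.928) and Traf3ip2 (0.926), and Socs3 most like Mkrn1 (0.963), Ssh2 (0.957), Atg13 (0.957), Kxd1 (0.955) and Mapkap1 (0.954). Between members, Il6 correlated with Socs3 at 0.851 and with Il6ra at -0.335, Lif with Il11 at 0.817 and with Osmr at 0.858, and Stat3 with Il6st at 0.911. The 16 arrays form 4 groups on 2 slides, so these values describe likeness of pattern only, chosen as the highest of 20317 genes for the named neighbours.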

How the data were processed

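RNA of the myoblast preparations was hybridised to 16 one-color (Cy3) Agilent mouse arrays, 4 for each culture and time. Per the file headers, Feature Extraction 11.0.1.1 made the deposited processed intensity of each spot by subtracting background and removing spatial trends, and probe positions are those of build mm9. The authors also deposited a table of log2 ratios, in which a 72-hr array is divided by its culture's average 48-hr signal, loess and quantile normalized according to the study's methods, which were used only as an alternative. Their column medians were near 0, and their changes correlated with those computed here at 0.988 and 0.985.

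Here, log2 processed intensities without spots that the scanner software called outliers were loess normalized (span 0.3, 4 iterations) against the average 48-hr signal of their culture and then quantile normalized over 16 arrays. Spots of a probe were averaged, a gene was read from its brightest probe, and the 20317 genes whose median log2 signal reached 5 were tested with limma 3.58.1 (R 4.3.3) and Benjamini-Hochberg adjustment at 0.01. Changes with time used the 8 arrays of a culture, and the CR and the culture comparisons used 1 fit of all 16. No gene spot was saturated, and the number of arrays limits the precision: an exact permutation test of 4 against 4 arrays cannot go below p = 0.0286. The fits of change with time were tested on simulated gene-level values. Normalization, the CR and the culture comparisons were not tested in this way. Intervals are 95% intervals of the fit.

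The members and gene lists were chosen with earlier results of these data known. Named were all 10 members with all probes, up to 4 genes a list and comparison with the greatest change among those that passed, and the 5 genes most like each ligand and Socs3 over the arrays. Fos, Nr4a1, Myog, Il11ra1 on the fiber and Osm were added after their values were seen. Replicates were separate preparations except the pooled one. Alternatives tried were background correction by normexp (offset 50), quantile normalization without loess, the 75th percentile of each array as its scale, other filters on low signal, the mean of a gene's probes, outlier spots kept, slide row as a block, other sets of arrays in the fit, the deposited ratios and each array left out.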

Additional observations from a re-analysis of the deposited data

Results flagged for a closer look

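Of the 40 combinations of a member and a group of 4 arrays, 4 held an array that stood apart from the other 3, meaning that its gap to the nearest of them, divided by the range of the group, exceeded Dixon's 95% limit for 4 values. By chance about 5% of groups would exceed it. In the pooled myofiber-associated 48-hr array (replicate 10), Il6 read 13.40 (gap over range 0.87) and Lif 9.37 (0.941), both above the other 3 arrays. Lifr read 10.32 in dispersed 72-hr replicate 8 (0.846), above the others, and Osmr read 11.35 in dispersed 48-hr replicate 1 (0.83), below the others. The values of Il6 and Lif without the pooled array are given with those genes above.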

How the results depend on the processing

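Of the values of single members under the alternatives, 172 of 180 kept direction and call for the dispersed time change, 168 of 190 for the myofiber-associated one, 245 of 260 for the CR, and 163 and 158 of 180 for the cultures at 48 and 72 hr. The number of members that passed (in parentheses) changed as follows, with the share of all genes that passed in that setting. For the myofiber-associated time change (1, beside 5.48%), it was 2 with scaling to the 75th percentile (5.71%), 7 in 1 fit of all 16 arrays (28.5%), 6 with the deposited ratios, which leave out the 48-hr spread (18.6%), and 0 to 4 with 1 array left out. For the dispersed change (2, beside 13.7%) it was 0 in 1 fit of all 16 arrays (4.92%), 3 with slide row as a block (15.4%), 3 with the deposited ratios (18.4%) and 2 to 3 with 1 array left out. For the CR (0, beside 3.45%) it was 1 with scaling to the 75th percentile (2.98%), 1 with slide row as a block (2.79%), 2 with the deposited ratios (18.8%) and 0 to 2 with 1 array left out; the member called with the block was Il6. At 48 hr (5, beside 51.6%) it was 3 with slide row as a block (38.5%), where Il6st and Stat3 were lost, 6 with the mean of a gene's probes (51.8%), 4 with no filter (32.1%), 4 with only the 8 arrays of that time (43.2%) and 3 to 5 with 1 array left out. At 72 hr (4, beside 31.3%) it was 3 with only the 8 arrays of that time (27.1%) and 2 to 5 with 1 array left out. Leaving out both myofiber-associated 72-hr replicate 4 and the pooled array, chosen after seeing the data, gave 5 for the time change (14.9%) and 4 for the CR (22.9%). Values that turned direction did not pass. With slide row as a block, the culture differences at 48 hr were -0.2744 for Lif and 0.06496 for Lifr. Lifr at 72 hr was 0.009535 with normexp, 0.1375 with slide row as a block, 0.000187 with outlier spots kept, -0.06644 to 0.0693 with 1 array left out and 0.004675 with both arrays left out, when Il6st was -0.02676. With 1 array left out, Il6st at 72 hr ranged from -0.0281 to 0.2584, Stat3 for the CR from -0.1072 to 0.2421, and at 48 hr Il11 from -0.3356 to 0.09663 and Osmr from -0.2217 to 0.01573. The dispersed changes ranged from -0.2879 to 0.08963 for Lif and from -0.1262 to 0.005431 for Socs3. The cause was not tested for any of these. No paired analysis was possible because the cultures and times compared share no replicate numbers.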
